A study of Mus musculus with 3 samples.

Results

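The binding of the retinoid X receptor RXRA was examined at 48 mouse genes that encode subunits of the nuclear pore and the receptors that carry cargo through it. They were taken from 21900 protein-coding RefSeq genes (assembly GRCm38.p6, the same build as mm10) by a rule on symbols that uses no measured value, though the gene set was picked with earlier results of these data known. A gene is called marked here where a peak lies within 1 kb of either of its ends. The rule took symbols that open with Nup, Ipo, Xpo, Kpna or Kpnb and a digit, together with Gle1, Tpr, Pom121, Rae1, Seh1l, Sec13, Ndc1 and Aaas. A further 2 symbols, Ipo11-lrrc70 and Kpna2-ps, match but are not protein-coding and were left out. Pore subunits under other symbols, such as Nupl1 and Ranbp2, fall outside the rule and are described separately.

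RXRA was mapped by CUT&RUN, in which an antibody guides a nuclease to chromatin and the DNA it releases is sequenced. There were 3 libraries, 1 of haematopoietic stem cells (HSC, 10000 cells, CD48-CD150+ within the Lin-cKit+Sca1+ gate) and 2 of multipotent progenitors (MPP, 50000 cells each, CD150- within the same gate). The cells came from the bone marrow of C57BL/6 mice of about 10 months, 3 or 4 animals to a pool, and after sorting spent 1 h in bexarotene, an RXR agonist, at 1 mM per the labels. The genotype entry is VavCre+; WT, where Vav drives Cre in blood cells, and the growth protocol names the mice Rxrabfl/fl (WT), so every library shares these alleles and the drug. Cell identity rests on the sort, since peak lists carry no expression, and no library with a control antibody or without the drug was used here. Whether each MPP library had its own pool of mice is not stated. With 1 HSC library no difference between HSC and MPP was tested.

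The HSC list held 4047 peaks and the MPP lists 29848 (replicate 1) and 19570 (replicate 2). Depth was read from the genome-wide background behind the peak caller's values, which was 0.604 fragments for HSC and 4.75 and 1.79 times as much for MPP replicates 1 and 2. The lowest pileup, the number of fragments stacked at a summit, that was called a peak was 5 for HSC and 10 and 6 for MPP replicates 1 and 2. A gene without a peak in HSC therefore has only a bound, not a measured level.

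The nuclear pore is a large channel through the nuclear envelope. Its scaffold is built from an outer Y-shaped complex and an inner ring, its channel is filled with unstructured proteins that repel most large molecules, and fibrils on the cytoplasmic side and a basket on the nuclear side help cargo on and off. Importins carry proteins in and exportins carry proteins and RNAs out, and the small GTPase Ran tells them on which side to load and unload. Dividing cells must build new pores, and blood progenitors divide more often than stem cells do.

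RXRA peaks lay at most of these genes in MPP and at few of them in HSC. A peak within 1 kb of a gene end was present for 7 of the 48 genes in HSC (14.6%), and for 28 (58.3%) and 33 (68.8%) in MPP replicates 1 and 2. Among all 21900 protein-coding genes the shares were 8.21%, 41.2% and 36%. The members' share was thus above the share of all genes in each library, and the distance was widest in MPP replicate 2. The nuclear transport genes are also longer, with a median of 45032 bp against 17146 bp. Among the 12151 protein-coding genes no shorter or longer than they are, the shares were 9.86%, 48.3% and 42.9%, so those for MPP replicate 1 lie closer together.

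The counts in MPP depended on the length of the lists. With each MPP list held to the 4047 peaks of highest fold, the length of the HSC list, 8 of the 48 genes were marked in each MPP library (16.7%, against 8.83% and 10.1% of all genes), next to the 7 of HSC. Gle1, Nup54, Ipo4, Ipo11 and Nup35 were among the 8 in both, and of these Ipo11 alone was also marked in HSC. Of the 7 genes marked in HSC, Nup85, Tpr, Xpo1, Kpnb1, Nup62 and Ipo13 were in neither shortened MPP list.

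**Figure D1:**
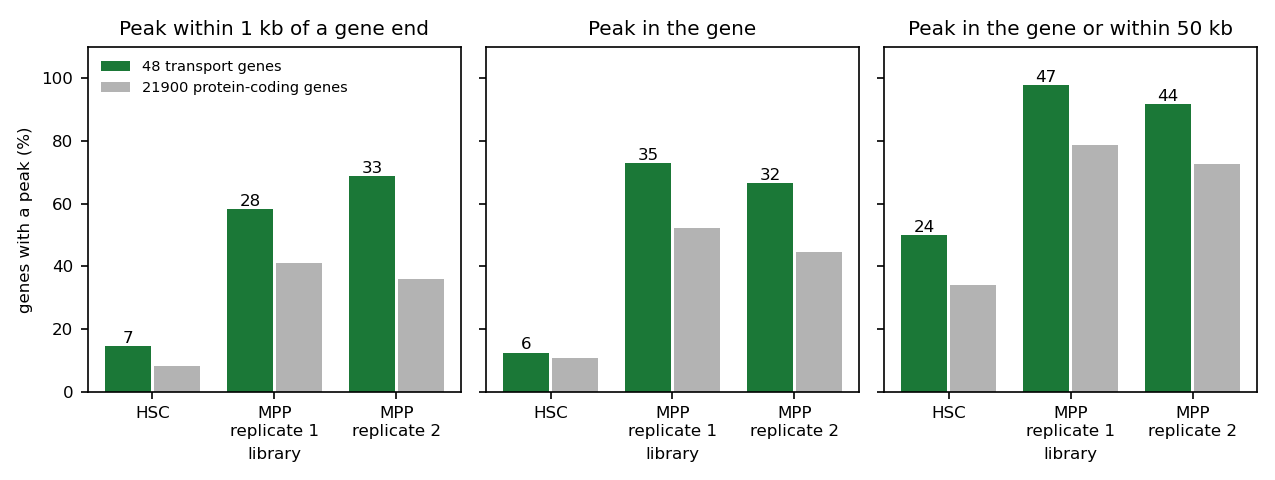
Percent of genes with an RXRA peak (y axis) in each library (x axis), for the 48 nuclear transport genes (green, with the number of genes above the bar) and for all 21900 protein-coding genes (grey). At gene ends 7, 28 and 33 nuclear transport genes had a peak, and the green bar is the higher of each pair in all 3 panels.

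By combination of libraries, Tpr, Nup85 and Ipo11 had a gene-end peak in all 3 (3 of 48, 6.25%, against 5.83% of all genes), and 22 had one in both MPP libraries but none in HSC (45.8%, against 23.1%). The share marked in all 3 libraries was thus near that of all genes, but it depended on MPP replicate 1. Without that library, HSC and MPP replicate 2 both marked 6 of the 48 (12.5%, against 7.57% of all genes), and without MPP replicate 2, HSC and MPP replicate 1 both marked 4 (8.33%, against 6.16%). Ipo13 was marked in HSC and MPP replicate 1 (1 gene, against 0.338% of all genes), and Nup62, Xpo1 and Kpnb1 in HSC and MPP replicate 2 (3 genes, 6.25%, against 1.74%). Sec13 and Kpna1 were marked in MPP replicate 1 alone (4.17%, against 12%), and Nup93, Nup107, Rae1, Kpna3 and Kpna4 in MPP replicate 2 alone (10.4%, against 5.32%). None was marked in HSC alone, where the share of all genes was 0.297%. At least 1 library marked 36 of the 48 (75%, against 48.6%), and 12 (25%, against 51.4%) had no gene-end peak in any.

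The MPP libraries shared most of their sites at these genes. Of the 31 peaks at these gene ends in MPP replicate 1, 26 (83.9%) shared 1 bp or more with a replicate 2 peak, against 60.7% of the gene-end peaks of all genes. In the other direction 25 of 34 (73.5%) did, against 74.4%, so replicate 2 showed no such distance. Of the 28 genes marked in replicate 1, 25 were marked in replicate 2 (89.3%, against 70.1% of all genes marked in replicate 1), and of the 33 marked in replicate 2, 25 were marked in replicate 1 (75.8%, against 80.4%). Both MPP libraries marked 25 genes in all (52.1%, against 28.9% of all genes and 34.4% of those of like length). HSC marked 3 of these 25 (12%, against 20.2%), and both MPP libraries marked 3 of the 7 HSC genes (42.9%, against 71%).

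**Figure D2:**
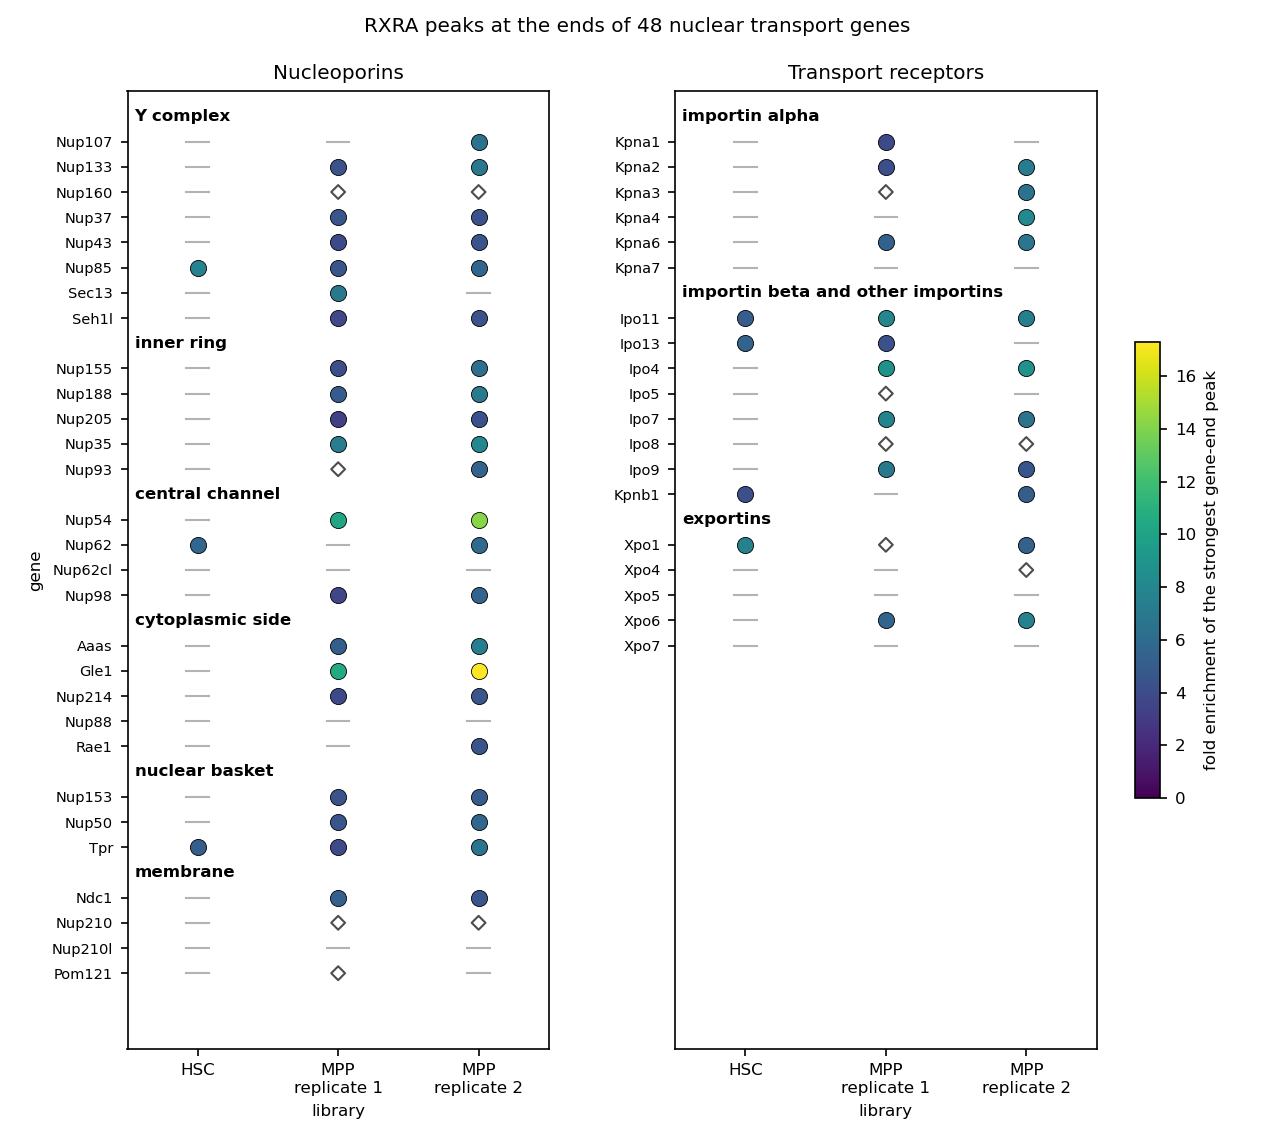
Map of the 48 genes by role (rows) and library (columns). A filled circle is a peak within 1 kb of a gene end, coloured by the fold enrichment of the strongest one, an open diamond a peak in the gene only, and a dash no peak in either place. The HSC column holds 7 circles, and Gle1 and Nup54 have the highest folds, in MPP.

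Where the start is known, the peaks sat at it. The RefSeq promoter table lists strand and start for 38 of the 48 genes, and every one of these with a gene-end peak, 6 for HSC and 22 and 27 for MPP replicates 1 and 2, had it within 1 kb of a listed start and none at the far end alone. Over all marked genes with an entry the shares were 90.4%, 91.3% and 93.3%. Counted at listed starts alone, HSC marked 6 of the 38 (15.8%, against 8.57% of 17492 genes with an entry), MPP replicate 1 marked 26 (68.4%, against 42.1%) and MPP replicate 2 marked 29 (76.3%, against 38%). For Kpna1, Kpna3, Kpna6, Nup35, Nup43, Nup85, Nup210l, Seh1l, Xpo4 and Xpo7 the table has no entry.

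Summits lay close to the start and mostly before it. The median summit was 108 bp upstream in HSC (median position -108, 6 peaks), with positions from -396 to 115. The medians for MPP replicates 1 and 2 were -35.5 (28 peaks, -520 to 377) and -49.5 (30 peaks, -436 to 370). Of these, 5 of 6, 17 of 28 and 22 of 30 summits lay before the start. Over all genes the medians were -76, -19 and -40 bp, with the same side of the start favoured.

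**Figure D3:**
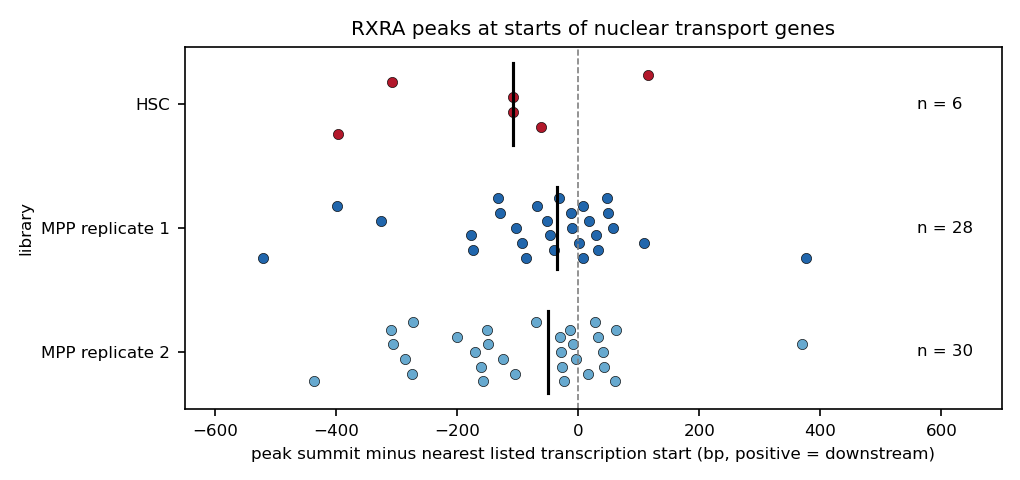
Position of each peak summit relative to the nearest listed transcription start in bp (x axis, positive is downstream), for peaks within 1 kb of a start of a nuclear transport gene, by library (y axis). Points are peaks, spread vertically only for visibility, and black bars are medians at -108, -35.5 and -49.5 bp.

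Tpr, Nup85 and Ipo11, the genes marked everywhere, serve different parts of the pathway. Tpr forms the filaments of the nuclear basket. Its HSC peak (chromosome 1, 150392799 to 150393148) had a fold of 5.07 over local background with 8 fragments stacked at the summit (3.45 to 15.8, the exact Poisson 95% interval, which covers counting error only). MPP replicate 1 had 2 peaks there, of fold 3.88 and 3.36, and MPP replicate 2 a single wide one of 830 bp and fold 6.68. Lower folds made up 35.9% of the HSC list and 71.0% of the MPP replicate 2 list. For the 2 peaks of MPP replicate 1 they made up 27.4% and 9.02% of its list. Tpr shares the site with Odr4, whose end lies within 1 kb.

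Nup85, a Y complex subunit, had the HSC peak of highest fold among the 48 genes. The peak (chromosome 11, 115564017 to 115564508) reached 7.62-fold and 12 fragments (6.20 to 21.0), above 91.2% of HSC peaks. In MPP replicates 1 and 2 the folds at the same site were 4.65 and 5.56, ranks 12062 of 29848 and 10128 of 19570. In HSC it was rank 352 of 4047. Ranks from lists of such different length show no change in binding.

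Ipo11 is an importin of the beta family. Its HSC fold was 5.02, with a pileup of 8 (3.45 to 15.8) and 34.8% of the list below. Its MPP folds were 8.01 and 7.30, with pileups of 30 (20.2 to 42.8) and 16 (9.15 to 26.0) and 96.7% and 80.2% of the lists below. The HSC peaks of Tpr, Nup85 and Ipo11 each overlapped peaks from the 2 MPP lists.

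Of the 4 genes marked in HSC and a single MPP library, 3 are main carriers or channel proteins: Xpo1, the exportin for proteins with a leucine-rich export signal, Kpnb1, the importin beta that works with importin alpha, and Nup62, the core of the central channel. The Xpo1 peak (chromosome 11, 23255518 to 23256007) stood above 90.7% of the HSC list, at 7.54-fold and 16 fragments (9.15 to 26.0), with the summit at -396. In MPP replicate 2 it reached 5.37-fold and 17 fragments (9.90 to 27.2), with 44.0% of the list below. MPP replicate 1 had no peak at that end, but 1 inside the gene at 1360 bp after the start, with a fold of 7.61, which MPP replicate 2 also had at 1313 bp with a fold of 5.57. The deepest library thus had its Xpo1 peak past the window, and the HSC library had none there.

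The Kpnb1 peak, at 4.18-fold and 7 fragments (2.81 to 14.4), was the weakest of the 7 in HSC. Only 6.03% of HSC peaks were lower. In MPP replicate 2 the fold was 5.10, with a pileup of 13 (6.92 to 22.2). Both lay wholly upstream of the gene. Nup62 reached 5.70-fold and 10 fragments (4.80 to 18.4) in HSC, and 5.94-fold and 17 fragments (9.90 to 27.2) in MPP replicate 2. The site also lies at the ends of Atf5 and Il4i1b. Ipo13, an importin that also exports some cargo, was the 1 gene marked in HSC and MPP replicate 1, with folds of 5.44 and 4.30 and pileups of 8 (3.45 to 15.8) and 18 (10.7 to 28.4). MPP replicate 2 had no peak within 50 kb of it.

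The promoters of the 6 genes with an HSC peak and a table entry, and those of Gle1 and Nup54, whose MPP folds were the highest, are shown because the peaks overlap them, in part or in full. Each runs from 250 bases before the start to 50 bases from it, 5′ to 3′ on the gene's strand, from RefSeq (GRCm38.p6). Capitals mark the letters of 6 short motifs on either strand: the receptor half-site AGGTCA, the E-box CACGTG that MYC and MAX bind, the GC box GGGCGG, the CCAAT box, the ETS core CGGAAG, and the NRF1 core GCATGCG.
Tpr, chr1:150392588-150392887, plus strand: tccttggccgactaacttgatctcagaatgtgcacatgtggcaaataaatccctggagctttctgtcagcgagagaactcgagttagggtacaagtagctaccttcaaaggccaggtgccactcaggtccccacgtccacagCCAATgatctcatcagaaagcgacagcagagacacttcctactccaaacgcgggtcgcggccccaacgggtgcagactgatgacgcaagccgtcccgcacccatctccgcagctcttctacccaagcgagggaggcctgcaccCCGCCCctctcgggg
Ipo11, chr13:106936909-106937208, minus strand: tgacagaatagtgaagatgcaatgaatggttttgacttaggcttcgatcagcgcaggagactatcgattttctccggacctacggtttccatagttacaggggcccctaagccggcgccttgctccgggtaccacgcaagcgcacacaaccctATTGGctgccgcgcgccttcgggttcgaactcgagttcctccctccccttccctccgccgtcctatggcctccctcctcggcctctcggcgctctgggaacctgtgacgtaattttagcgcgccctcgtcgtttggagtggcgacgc
Xpo1, chr11:23255791-23256090, plus strand: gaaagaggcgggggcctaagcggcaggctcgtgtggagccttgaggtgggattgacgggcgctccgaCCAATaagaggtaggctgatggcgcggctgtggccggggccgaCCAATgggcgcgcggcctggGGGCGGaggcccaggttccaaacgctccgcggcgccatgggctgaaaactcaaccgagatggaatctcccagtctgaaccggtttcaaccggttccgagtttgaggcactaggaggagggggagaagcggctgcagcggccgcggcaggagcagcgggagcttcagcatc
Nup62, chr7:44815838-44816137, plus strand: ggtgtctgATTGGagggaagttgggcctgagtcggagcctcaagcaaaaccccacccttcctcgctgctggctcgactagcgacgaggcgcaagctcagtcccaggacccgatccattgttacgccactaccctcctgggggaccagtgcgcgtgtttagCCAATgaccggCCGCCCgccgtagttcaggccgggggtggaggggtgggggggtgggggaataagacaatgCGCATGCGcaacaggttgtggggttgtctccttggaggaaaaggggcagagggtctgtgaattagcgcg
Kpnb1, chr11:97187843-97188142, minus strand: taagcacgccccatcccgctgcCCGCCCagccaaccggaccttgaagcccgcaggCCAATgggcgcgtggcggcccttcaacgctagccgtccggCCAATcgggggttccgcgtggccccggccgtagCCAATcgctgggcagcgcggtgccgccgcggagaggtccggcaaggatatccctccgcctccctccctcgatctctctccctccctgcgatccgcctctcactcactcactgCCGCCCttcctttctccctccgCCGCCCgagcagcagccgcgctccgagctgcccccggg
Ipo13, chr4:117914950-117915249, minus strand: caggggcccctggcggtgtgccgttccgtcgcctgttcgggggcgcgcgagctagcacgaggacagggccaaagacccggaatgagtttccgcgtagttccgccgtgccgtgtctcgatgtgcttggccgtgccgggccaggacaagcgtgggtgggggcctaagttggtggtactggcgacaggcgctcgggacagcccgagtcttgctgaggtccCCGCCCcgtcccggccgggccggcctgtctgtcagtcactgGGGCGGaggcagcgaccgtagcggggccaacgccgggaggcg
Gle1, chr2:29935159-29935458, plus strand: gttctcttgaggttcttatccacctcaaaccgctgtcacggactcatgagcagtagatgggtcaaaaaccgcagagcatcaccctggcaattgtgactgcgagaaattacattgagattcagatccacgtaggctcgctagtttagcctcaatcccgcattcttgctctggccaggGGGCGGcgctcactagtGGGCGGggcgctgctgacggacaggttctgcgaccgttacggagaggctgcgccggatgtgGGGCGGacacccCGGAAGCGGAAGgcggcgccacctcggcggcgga
Nup54, chr5:92435150-92435449, minus strand: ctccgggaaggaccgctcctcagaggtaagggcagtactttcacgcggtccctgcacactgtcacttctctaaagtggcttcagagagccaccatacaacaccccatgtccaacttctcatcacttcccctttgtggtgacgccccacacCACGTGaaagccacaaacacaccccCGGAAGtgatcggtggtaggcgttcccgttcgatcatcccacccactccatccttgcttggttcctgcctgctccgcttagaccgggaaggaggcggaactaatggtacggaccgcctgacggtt

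The peaks covered these stretches to different extents. HSC peaks lay over all 300 bases at Nup62, 269 at Ipo11, 252 at Ipo13, 217 at Xpo1, 89 at Tpr and 50 at Kpnb1. The HSC summits of Xpo1, Kpnb1 and Tpr, at -396, -307 and 115 from the start, lay outside these stretches. At Gle1 the MPP peaks covered 249 and 225 of the 300 bases and at Nup54 272 and 274.

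CCAAT boxes were found in 5 of the 6 promoters with an HSC peak (83.3%, against 38.2% of all protein-coding promoters). Kpnb1 held 3 of them, at positions -195, -155 and -122 from the start. At Kpnb1 and Tpr the HSC peak did not reach the CCAAT boxes. Ipo13 had none. GC boxes also lay in 5 of the 6, all but Ipo11 (83.3%, against 46.2%). Neither the ETS core nor the E-box occurred in the 6, where 21.1% and 7.84% of all promoters held them. Gle1 had 2 abutting ETS cores at positions 16 and 22 and 3 GC boxes, while Nup54 had an ETS core at -75 and an E-box at -100. No motif share was computed for all protein-coding promoters with an HSC peak, the like comparison. With 6 promoters these are descriptions of the sequences only.

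Across all 43 listed promoters of the 38 genes, CCAAT occurred in 51.2%, against 38.2% of the 21263 protein-coding promoters of the same length. GC boxes occurred in 67.4% against 46.2%, ETS cores in 37.2% against 21.1%, the longer ETS form CCGGAAGT, which holds the core, in 14% against 5.15%, and E-boxes in 11.6% against 7.84%. Protein-coding promoters with a peak in both MPP libraries had them in 38%, 70%, 41.9%, 12.2% and 11.4%. The 23 member promoters with a peak in both MPP libraries, the like comparison, had them in 47.8%, 60.9%, 43.5%, 17.4% and 17.4%, in the same order. Each share of these 23 rests on 4 to 14 promoters. The E-boxes were at Ipo4, Ipo7, Nup54, Nup93 and Nup188.

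The exact letters AGGTCA of the receptor half-site were rare in the members' promoters. Variants of the half-site were not searched for. The half-site was in 1 promoter (2.33%), that of Nup155, against 14.7% of all promoters and 11.1% of those with a peak in both MPP libraries. No member held 2 half-sites in the same direction with 1, 4 or 5 bases between them (DR1, DR4 and DR5), which 0.047%, 0% and 0.0047% of all promoters held. The NRF1 core was in 4 (9.3%, against 4.44% of all), at Nup50, Nup62, Nup107 and Xpo5. These 4 also held its longer form, the core with GC before it and C after it (9.3%, against 1.33%). Among promoters with a peak in both MPP libraries, 1 of the 23 of members (4.35%) held each form, against 7.26% and 2.1% of all such promoters. The YY1 motif, AAGATGG followed directly by CGGC, was in 4 (9.3%, against 0.889%), at Nup50, Nup88, Nup188 and Nup205, and in 3 of the 23 (13%, against 1.94%). The members' promoters were rich in CpG, with a median of 27 CpG in 300 bases and a GC content of 64.0%, against 13 and 56.3% for all, and 22 and 61.7% for those with a peak in both MPP libraries.

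Gle1 and Nup54 carried the strongest peaks of the 48 genes. Gle1 is an activator of the helicase that releases mRNA on the cytoplasmic side of the pore. Its peak (chromosome 2, 29935210 to 29935585 in MPP replicate 1) reached 10.5-fold and 41 fragments (29.4 to 55.6) in replicate 1 and 17.3-fold and 46 fragments (33.7 to 61.4) in replicate 2, ranks 175 and 56 in their lists. In replicate 2 no other gene without an HSC gene-end peak, of 6216, had a higher fold. Nup54, which lines the central channel with Nup62, had folds of 10.2 and 14.2 and pileups of 40 (28.6 to 54.5) and 41 (29.4 to 55.6), ranks 194 and 89. The 2 sites were therefore in the top 1% of both MPP lists, where 99.4% and 99.7% of peaks lay below Gle1 and 99.3% and 99.5% below Nup54, and neither was called in HSC. The HSC peak nearest to Gle1 lay 45598 bp away at the end of Odf2, and Nup54 had none within 50 kb.

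**Figure D4:**
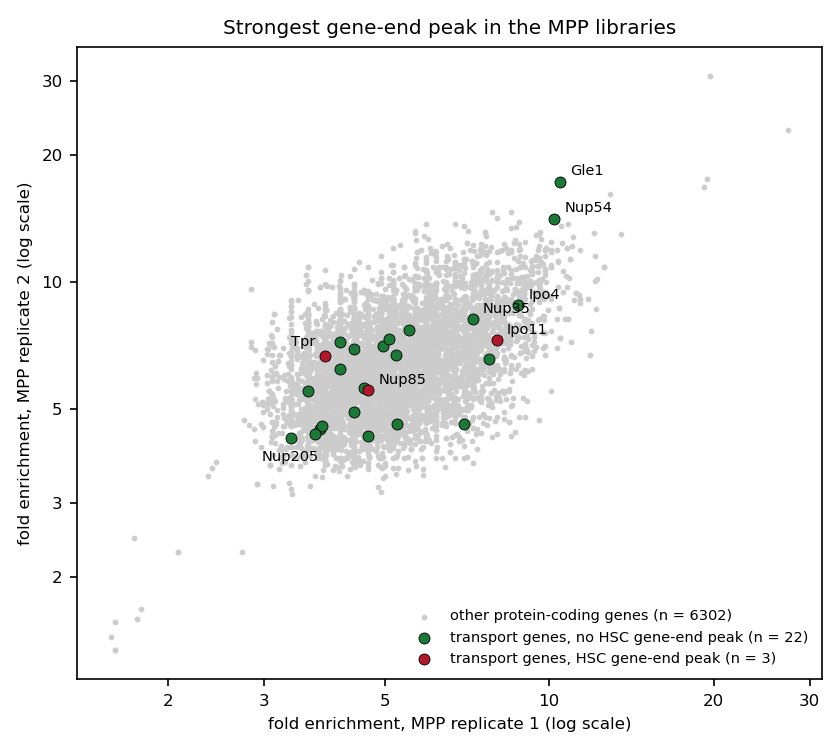
Fold enrichment of the strongest gene-end peak in MPP replicate 1 (x axis) and MPP replicate 2 (y axis), both on log scales, for genes marked in both. Grey points are the other protein-coding genes, green points the 22 nuclear transport genes without an HSC gene-end peak and red points the 3 with one. Gle1 and Nup54 lie at the upper right, and the remaining coloured points lie within the grey cloud.

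Ordered by the worse of their MPP ranks, the next of the 22 genes without an HSC peak were Ipo4, which imports histones and ribosomal proteins, and Nup35, a small inner ring subunit. At Ipo4 the folds were 8.76 and 8.83, with pileups of 39 (27.7 to 53.3) and 20 (12.2 to 30.9), at a site that also lies at Tm9sf1. At Nup35 they were 7.24 and 8.17, with pileups of 27 (17.8 to 39.3) and 16 (9.15 to 26.0). Among all 5051 genes with this combination (both MPP lists, HSC absent), in the same order, Gle1 stood at place 4, Nup54 at 7, Ipo4 at 180 and Nup35 at 323. Nup205 was last of the 22, at place 4891, so these genes spanned nearly the whole range. The median fold of the strongest gene-end peak was 5.44 in HSC for the marked nuclear transport genes and 5.50 for all marked genes, and 4.65 against 4.86 and 6.25 against 6.14 for MPP replicates 1 and 2. The typical strength of their peaks was thus close to that at other genes.

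Among the scaffold subunits, the Y complex had peaks at 1 of 8 genes in HSC and 6 of 8 in each MPP library. For this and every role below, the shares of all genes to hold beside the counts are 8.21% for HSC and 41.2% and 36% for the MPP libraries, and with so few genes to a role nothing particular to a role is read from them. Nup133, Nup37, Nup43 and Seh1l were marked in both MPP libraries, with folds of 4.39 and 6.95, 4.65 and 4.32, 3.84 and 4.57, and 3.72 and 4.36. Nup37 shares its site with Parpbp. Sec13, which also coats vesicles that leave the endoplasmic reticulum, had a peak in MPP replicate 1 alone, with a fold of 6.92, above 92.3% of the list, and Nup107 in replicate 2 alone, with a fold of 6.45. Nup160 was the Y complex gene without a gene-end peak. It had 1 in both MPP libraries past the start, at 2093 and 2065 bp, with folds of 7.24 and 8.12.

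The inner ring, which anchors the pore to the membrane curve, was marked at all 5 genes in MPP replicate 2, at 4 in replicate 1 and at none in HSC, where 8.21% of all genes were marked. Nup188 had folds of 4.96 and 7.07 at a site shared with Dolk, and Nup155 4.13 and 6.25. Nup205 had the weakest pair, 3.36 and 4.27, from peaks that did not overlap. The replicate 2 peak that overlapped the replicate 1 peak had a fold of 3.65. Nup93, which holds the inner ring together, was marked at its start in replicate 2 alone, with a fold of 5.43.

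In the central channel Nup98, which makes the dense mesh of the pore, had MPP folds of 3.62 and 5.51 at peaks that also lie at Pgap2. These 2 peaks did not overlap, and the replicate 1 peak that overlapped replicate 2 had a fold of 3.36. Nup62cl had no peak within 50 kb in any library. On the cytoplasmic side Aaas, the gene mutated in triple A syndrome, had folds of 5.09 and 7.36, and Nup214, a partner of Nup88, 3.79 and 4.50 at a site shared with Aif1l. Rae1, an mRNA export factor, was marked in MPP replicate 2 alone with a fold of 4.59, and Nup88 in no library. All 3 nuclear basket genes were marked in both MPP libraries: Nup153, with folds of 4.39 and 4.94, and Nup50, with 4.58 and 5.61, as well as Tpr.

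Of the 4 membrane proteins that hold the pore in the envelope, Ndc1 was marked at its end in both MPP libraries, with folds of 5.26 and 4.62. At Nup210, a membrane glycoprotein, both MPP libraries had a peak at a listed start that lies inside the gene of the table, with folds of 3.56 and 5.39. Pom121 had such a peak in MPP replicate 1 with a fold of 6.11. Nup210l, a relative of Nup210, had no peak in the gene or within 1 kb of it in any library.

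Of the 29 nucleoporin genes 3 were marked in HSC, and of the 19 transport receptor genes 4, against 8.21% of all genes. In MPP replicates 1 and 2 the nucleoporins had 19 and 22 marked and the receptors 9 and 11, against 41.2% and 36% of all genes. The difference between nucleoporins and receptors was not tested. Among the importins alpha, the adaptors that read the classical import signal, Kpna2 had MPP folds of 4.13 and 7.21 and Kpna6 5.24 and 6.74. Kpna1 was marked in replicate 1 alone (fold 3.84). Past the window at the same end of Kpna1, both MPP libraries had a stronger peak, and the 2 overlapped. These peaks lay 1397 and 1349 bp outside the gene, with folds of 7.86 and 10.6 in replicates 1 and 2. Kpna3 and Kpna4 were marked in replicate 2 alone (6.50 and 8.15), and Kpna7, known from the egg and early embryo, in none. No importin alpha gene was marked in HSC.

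Of the 8 importins of the beta family, 3 were marked in HSC and 5 in each MPP library. Ipo7 had folds of 7.75 and 6.59 and Ipo9, a histone importer, 6.98 and 4.63. Ipo9 stood above 92.6% of the replicate 1 list and 20.2% of the replicate 2 list, so the libraries disagreed on its place. Ipo8 had peaks in both MPP libraries at a listed start inside the gene, with folds of 7.49 and 7.21, and Ipo5 in replicate 1 alone, with a fold of 3.36.

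HSC and MPP replicate 1 each marked 1 of the 5 exportins, and MPP replicate 2 marked 2. Xpo6, which exports actin, had folds of 5.53 and 7.69. Xpo4, Xpo5, which exports microRNA precursors, and Xpo7 had no peak at an end in any library. Xpo4 had a peak inside the gene in MPP replicate 2, with a fold of 5.63, and Xpo5 and Xpo7 had none in the gene.

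A peak in the gene was present for 6 of 48 in HSC (12.5%, against 10.8% of all genes). MPP replicate 1 had one in 35 (72.9%, against 52.1%) and MPP replicate 2 in 32 (66.7%, against 44.6%). Among genes no shorter or longer than these, the shares were 13.2%, 63.6% and 55.1%. Away from the 1 kb windows there were 0, 13 and 9 peaks inside the genes. A peak in the gene and none at an end was found for 0 genes in HSC (against 4.51% of all genes), 8 for MPP replicate 1 (16.7%, against 13.8%) and 4 for MPP replicate 2 (8.33%, against 11.4%).

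Within 50 kb or in the gene, HSC had a peak for 24 genes (50%, against 34%). MPP replicate 1 had one for 47 (97.9%, against 78.8%) and MPP replicate 2 for 44 (91.7%, against 72.7%). The stretch searched is wider for longer genes, and these shares were not set against genes of like length. Of the 22 HSC peaks outside the genes, 18 lay within 1 kb of an end of another protein-coding gene, as did 78 of 164 and 68 of 117 in MPP. Over the whole lists, 1497 of 4047, 8966 of 29848 and 7263 of 19570 peaks lay at a gene end, a count that also takes in peaks far from any of these genes.

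Sites shared with a neighbour were common. Of the peaks at the ends of the 48 genes, 2 of 7 for HSC and 8 of 31 and 7 of 34 for MPP replicates 1 and 2 also lay at another protein-coding gene, or 28.6%, 25.8% and 20.6%, against 21.2%, 15.3% and 18.3% over all gene-end peaks. Which of the genes such a peak belongs to was not determined. Without these peaks, an alternative chosen after seeing the data, Ipo4, Nup37, Nup62, Nup98, Nup188, Nup214 and Tpr lose their mark. Then 19 of the 48 have none, and the share of all genes was not computed for this alternative.

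Genes of the Ran system and other transport genes outside the rule were also marked. Of 39 such genes, from a list chosen with earlier results of these data known, HSC marked 15, MPP replicate 1 31 and MPP replicate 2 30, and all 3 libraries 12, where the shares of all genes were 8.21%, 41.2%, 36% and 5.83%. For the 48 genes of the rule these numbers were 7, 28, 33 and 3. Of the 8 genes of the Ran system 4, 7 and 7 were marked. Ranbp2, the large fibril protein of the cytoplasmic side, had folds of 5.65, 7.24 and 8.02 in HSC and MPP replicates 1 and 2, and Rangap1, which switches Ran off, 4.89, 4.01 and 9.75. Nutf2, which carries Ran back into the nucleus, had 6.28, 7.61 and 6.50. Ran itself was marked in MPP alone, with folds of 4.12 and 6.95, and Rcc1, which loads Ran in the nucleus, with 4.98 and 4.06.

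Other receptors marked in all 3 libraries were Xpot, the exportin for tRNA, with folds of 4.69, 7.47 and 12.0, and Tnpo3, an importer of splicing factors, with 5.91, 7.83 and 10.6. Cse1l, which returns importin alpha to the cytoplasm, was marked in both MPP libraries. Of 16 mRNA export genes 3, 12 and 11 were marked, and of 7 genes of pore assembly and the nuclear lamina 5, 6 and 7, against the same 8.21%, 41.2% and 36% of all genes. Ahctf1, which seeds new pores on chromatin after mitosis, had folds of 5.58, 5.01 and 6.46. Of the pore subunits under older symbols, Nupl1, the channel partner of Nup54 and Nup62, had folds of 7.40, 7.59 and 7.68 in all 3 libraries, and Nupl2, a binding partner of Gle1, 7.75 and 7.13 in MPP alone.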

How the data were processed

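The deposited data are 1 narrowPeak list per library, so replicates were called separately. The submitters' processing notes name MACS2 2.1.4, Bowtie2 2.3.4.1, cutadapt 1.9.1, Trim Galore 0.4.2 and build mm10. Settings, and whether a control library was used, are not given in those sources. The fold enrichment at the summit (a ratio), the −log10 p and the −log10 q are the authors' deposited values, and fold serves only to describe or rank peaks within a list. The deposited score is the −log10 q rescaled to whole numbers and was not used.

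Pileups were recovered from fold and p with scipy 1.17.1, where fold is (pileup + 1) / (background + 1). At least 99.98% of each list gave a whole pileup, with −log10 p matched within 0.001. Their intervals cover counting error only. A gene was marked where a peak overlapped the 1 kb on either side of an end by at least 1 bp. Strand and starts came from the RefSeq promoter table. Marking and pileup recovery were checked on planted peaks.

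The members, lists and rules were chosen with earlier results of these data known. The rule set full values for members marked in all 3 libraries, or in HSC and not in both MPP, for the 10 leading ones among those marked in both MPP alone, for up to 2 more a role, and for Gle1 and Nup54. Not all are printed. Of the 10, Gle1, Nup54, Ipo4 and Nup35 have pileups, and the others and those added by role have folds alone. Tpr and Nup85 have pileups for HSC alone. Members without a peak in the gene or within 1 kb got no values. Folds of the other marked members, and the promoters of Gle1 and Nup54 beyond the rule's 6, were added after values were seen. No test between HSC and MPP was run, with 1 HSC library, and counts stand beside the share of all protein-coding genes. Alternatives were windows of 500 bp and 5 kb, q at or below 1e-05, MPP lists held to the HSC length, summits, listed starts, other overlaps, and each MPP library left out.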

Additional observations from a re-analysis of the deposited data

How the results depend on the processing

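Of the 70 values recomputed under alternatives, 48 stayed within 1.5 times the reported count. The 500 bp window, the summit in place of the overlap and a 50% overlap or 1 kb gap moved none by more. With a 5 kb window 6 genes were marked in all 3 libraries and 4 in none. With listed starts alone, over 38 genes, 5 had no peak in any library, and without peaks at another gene's end 19. No share of all genes was computed for these counts of genes marked in all 3 libraries or in none. With the 5 kb window, 11.5%, 54% and 46% of all genes were marked in HSC and in MPP replicates 1 and 2.

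With q at or below 1e-05, 2 genes were marked in HSC (Nup85 and Xpo1, 4.17%, against 2% of all genes). MPP replicate 1 marked 17 (35.4%, against 27.4%) and replicate 2 marked 23 (47.9%, against 25.9%). All 3 libraries marked 1 gene, both MPP libraries but not HSC 11, and none 20, for which no share of all genes was computed. Then 1 HSC gene-end peak overlapped both MPP libraries, 12 replicate 1 peaks overlapped replicate 2, and 6 genes had an HSC peak within 50 kb. With each MPP list held to its 4047 peaks of highest fold, 8 genes were marked in each MPP library, 1 in all 3 libraries (Ipo11), 4 in both MPP libraries but not HSC, and 31 in none. A peak in the gene and not at an end was then found for 3 genes in MPP replicate 1 and 1 in replicate 2. A peak within 50 kb was found for 25 and 27. Except for the 8 genes marked in each MPP library, no share of all genes was computed for these counts. At equal list length the count at gene ends in MPP was thus close to the 7 of HSC. The shares of all genes were then also close, at 8.83% and 10.1% for MPP and 8.21% for HSC. Why the members' counts differ between the full lists was not tested.

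Leaving out MPP replicate 1 gave 6 genes marked in both remaining libraries (the 3 reported and Nup62, Xpo1 and Kpnb1), and leaving out replicate 2 gave 4. No paired analysis was possible because HSC has 1 library and its label carries no replicate number. Depth bounds what each list can hold: the lowest pileup called was 5 fragments in HSC and 10 and 6 in MPP.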

Other observations

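The fold of each MPP peak can be written as the pileup it would give at the genome-wide background of HSC. For Gle1 that pileup is 15.8 fragments from MPP replicate 1 and 26.8 from replicate 2, and for Nup54 15.4 and 21.7, where 5 fragments were the lowest pileup called in HSC. Of the 22 members that both MPP libraries marked and HSC did not, 19 reach at least 5 by this arithmetic in both libraries. Nup98, Nup205 and Seh1l do not. The share over all genes with this combination was not computed, so nothing particular to the members is read from the count. This arithmetic keeps the fold, with 1 added to pileup and background, and does not scale fragments by depth. MPP replicate 1, where Gle1 had 41 fragments, was 4.75 times as deep as HSC by background. Scaling by depth would give lower pileups from that library. The count of 19 thus does not show that peaks at these sites could be called at the depth of HSC. The local HSC background at these sites is not known, and why no HSC peak was called there was not tested.

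Members with an HSC gene-end peak did not have the stronger MPP peaks. Their median MPP fold was 4.48 in replicate 1 (4 genes) and 5.75 in replicate 2 (6 genes), and that of members without one 4.81 (24 genes) and 6.45 (27 genes), with overlapping ranges. Over all protein-coding genes the order was the opposite, 5.17 against 4.79 and 6.84 against 5.97. The number of members with an HSC peak is small, and the difference between the members and all genes was not tested.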
